A study of Macaca fascicularis with 7 samples.

Results

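Kinesins are motor proteins that use ATP to walk along microtubules or to take microtubule ends apart. Some build and move the spindle and complete cell division, and others carry organelles, vesicles and RNA. An oocyte assembles its meiotic spindle without centrosomes, and it then divides unequally to give off a polar body, so spindle kinesins have been studied in this cell in several species. The genes described here are the 39 rows, of 28161 usable gene rows, whose name is KIF followed by a number, or KIFC and a number, with an optional letter from A to C. They lie on 16 chromosomes. By their known roles 15 act mainly on the spindle or in cytokinesis, 16 in cargo transport, and 8 in cilia, at centrioles or elsewhere. A motor named otherwise, such as CENPE or STARD9, lies outside this rule, as do the rows KIFAP3, KIF1BP and KIF28P.

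Poly(A) RNA was measured in 7 libraries of wild type cynomolgus monkey (Macaca fascicularis) oocytes. The groups were metaphase II (MII) oocytes matured in vitro (IVM, n = 3, labelled as treated), MII oocytes matured in vivo (IVO, n = 2, labelled as control) and immature germinal vesicle oocytes (GV, n = 2, labelled as control), and the comparison asks how expression differs between them. The labels give neither the age of the animals nor the number of oocytes in a library, nor whether libraries came from separate animals, so the p-values cover the spread of these libraries alone, and that spread may be technical. The labels keep the GV alignments under a different folder from all MII alignments, so storage folder and stage cannot be told apart.

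Library totals ranged from 22901970 to 29245733 counts. Levels are given as CPM, which bring the counts of each library to a common total after scaling by TMM (trimmed mean of M values), and a difference is a log2 fold change with its standard error (SE). The TMM factors were 0.7662, 0.8893 and 0.9095 in IVM MII, 0.8336 and 0.9848 in IVO MII, and 1.423 and 1.382 in GV. The scaling thus raised MII levels against GV for every gene, and small rises against GV depend on it. Of the 14 oocyte markers with a row, 14 had at least 1 CPM in every library. The summed level of 16 cumulus and granulosa markers was 97.2 to 220 CPM in IVM MII, 64.9 to 108 in IVO MII and 19.1 to 20.3 in GV, with AMH and PTX3 at 0 counts in every library. TNFAIP6, at 149, 115 and 55.6 CPM in IVM MII, 46.1 and 18.2 in IVO MII, and 7.19 and 13.8 in GV, and FSHR, at 53.5, 30.2 and 21.9 CPM in IVM MII, 6.01 and 3.31 in IVO MII, and 2.21 and 1.04 in GV, were called higher in IVM MII than in GV. HAS2, at 13.5, 9.72 and 19.5 CPM in IVM MII, 39.4 and 38.5 in IVO MII, and 7.95 and 4.17 in GV, was called higher in IVO MII than in GV. CYP19A1 went the other way in IVM MII, where it had 0 counts in every library and was called lower than in GV. It was at 9.83 and 1.23 CPM in IVO MII and at 0.514 and 0.19 in GV. Of the stroma and endothelium markers, summed at 74.0 to 90.8 CPM in IVM MII, 92.4 to 128 in IVO MII and 1090 to 1220 in GV, VWF made up 991 and 1139 CPM in GV while COL3A1, LUM and PDGFRB had 0 counts in every library. CDH5, at 13.89, 11.53 and 10.34 CPM in IVM MII, 29.34 and 55.93 in IVO MII, and 75.35 and 58.57 in GV, was also called lower in IVM MII than in GV. PECAM1 overlapped between all groups, at 9.23 to 30.3 CPM in IVM MII, 12.9 and 18.5 in IVO MII, and 13.3 and 12.2 in GV. The 10 blood markers summed to at most 3.67 CPM. The part of other cells in the kinesin results was not tested, and in bulk RNA fewer cells of a type and less RNA per cell cannot be told apart.

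Kinesin mRNA took a larger share of the library in MII than in GV oocytes. The 39 genes held 0.275%, 0.285% and 0.333% of the unscaled counts in the IVM MII libraries, 0.318% and 0.368% in the IVO MII libraries, and 0.204% and 0.196% in the GV libraries. The lowest MII library thus lay above both GV libraries, while the IVM and IVO ranges overlapped. KIF20B and KIF5B, whose parts of the family's counts are given below, weighed most in this. The summed share therefore does not describe the other members. CPM and shares are relative to the other transcripts in a library, and the cDNA was primed on poly(A). More kinesin mRNA, less of other mRNA and a change in poly(A) tail length therefore cannot be told apart.

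**Figure D1:**
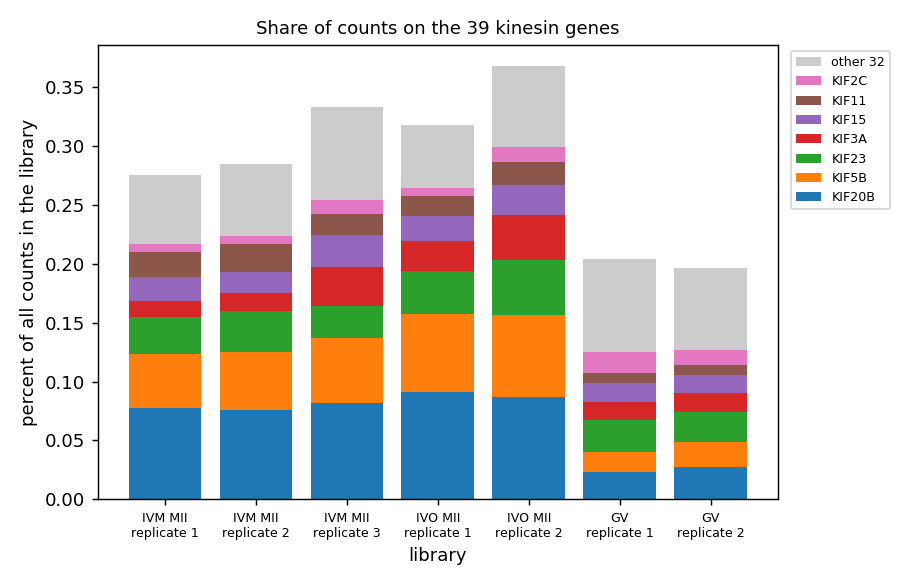
Percent of all counts in each library (vertical axis) that fell on the 39 kinesin genes, with 7 abundant genes coloured and the other 32 in grey. The stacks reach 0.275% to 0.333% in IVM MII and 0.318% to 0.368% in IVO MII, above 0.196% and 0.204% in GV, and the KIF20B and KIF5B segments are the ones that widen most.

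A few genes made up most of the family. KIF20B, KIF5B, KIF23, KIF3A and KIF15 together held 68.0% ± 0.643 (SD, n = 3) of the family's counts in IVM MII, 74.2% ± 2.12 (n = 2) in IVO MII and 51.2% ± 3.76 (n = 2) in GV. These 5 were picked for their counts. KIF20B alone, which encodes a spindle midzone motor of cytokinesis, took 26.5% ± 1.76 in IVM MII, 26.1% ± 3.62 in IVO MII and 12.6% ± 1.97 in GV. KIF5B, the heavy chain of conventional kinesin in most tissues, took 16.9% ± 0.435 in IVM MII, 19.9% ± 1.28 in IVO MII and 9.55% ± 1.72 in GV.

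Levels between genes were compared as CPM per kilobase of exon, since a longer transcript gives more fragments. The aligner used does not split reads over introns, so this scale may also depend on the number of exons, which was not corrected. In IVM MII the order began with KIF20B at 141 ± 12.1 CPM per kilobase, KIF5B at 99.6 ± 4.72, KIF23 at 96.5 ± 14.4, KIF3A at 76.9 ± 34.3 and KIF15 at 52.9 ± 10.5 (SD, n = 3). Only KIF20B stood apart from its neighbour there: the libraries of each later pair overlapped, down to KIF20A and KIF14. In IVO MII the same 5 genes led at 150.3 ± 23.0, 127 ± 10.1, 121 ± 7.87, 111 ± 18.3 and 53.4 ± 0.539 CPM per kilobase, where each of the first 3 overlapped with the next gene and KIF3A lay above KIF15. In GV the order began with KIF23 at 50.2 ± 1.99, KIF2C at 40.1 ± 7.82, KIF3A at 35.4 ± 3.22 and KIF20B at 27.4 ± 4.11 CPM per kilobase (n = 2). KIF2C and KIF3A overlapped in GV, whereas KIF23 lay above both. KIF22, which encodes a motor that binds chromosome arms, ranked 22 in IVM MII, 17 in IVO MII and 7 in GV on this scale. KIF2A, which encodes a depolymerase of microtubule ends, ranked 15 in both kinds of MII oocyte and 25 in GV.

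At the other end 7 of the 39 genes had too few counts for a test, at most 26 counts in any library. KIF12 and KIF2B had 0 counts in all 7 libraries, which allows up to 3 counts, or 0.0907 to 0.161 CPM depending on the library, for counting error alone. KIF5A, a neuronal heavy chain of conventional kinesin, had 0 counts in every MII library and 4 and 5 counts in GV. KIF7, a regulator of hedgehog signalling in cilia, had 4 counts in GV replicate 1 and 0 in every other library. KIF17, KIF1C and KIFC2, motors of cargo transport, stayed below 1 CPM in each library. The remaining 32 genes were tested. Of these, 7 share exon bases with another row on the opposite strand: KIF2A, KIF4A, KIF9, KIF20A, KIF21A, KIF24 and KIFC3.

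**Figure D2:**
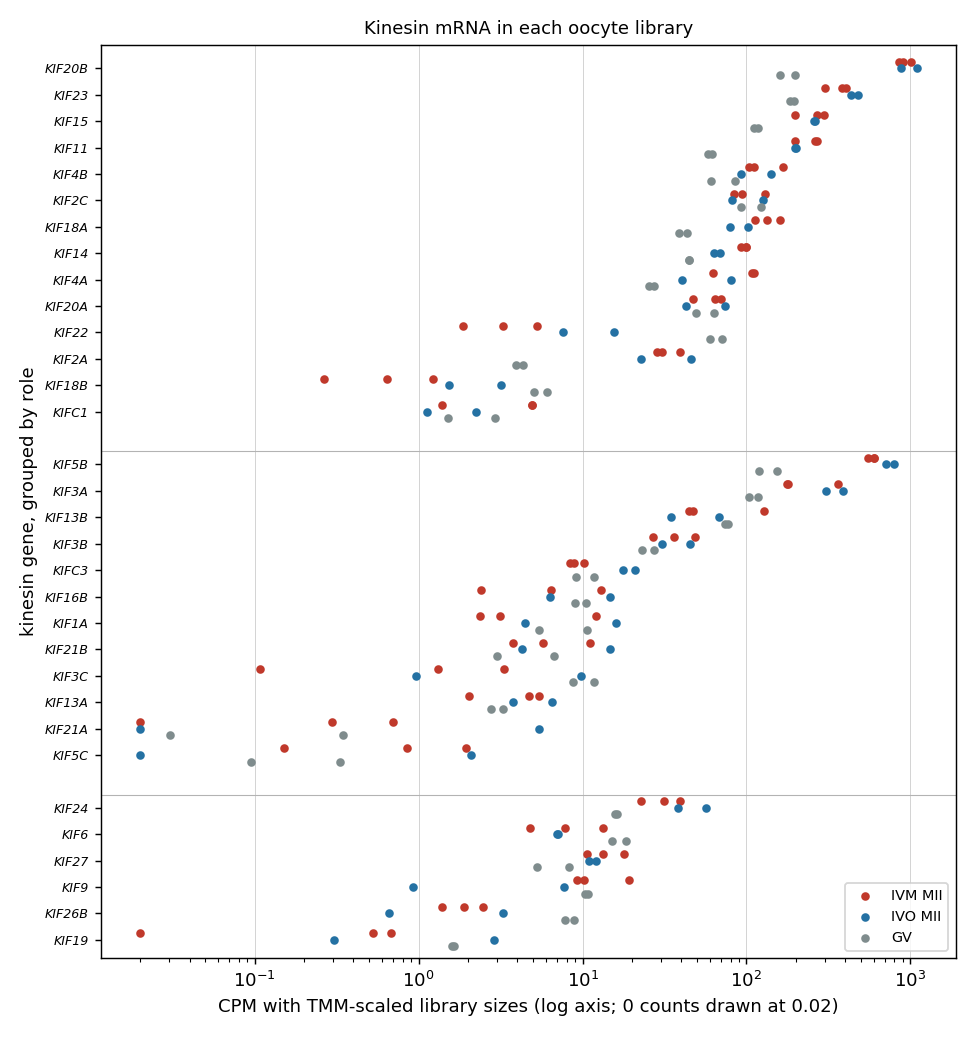
Level of the 32 tested kinesin genes in each library, in CPM on a log axis, with 1 point per library and genes grouped by role. GV points (grey) lie left of both MII groups for KIF20B, KIF5B, KIF11 and KIF2A, and right of them for KIF22 and KIF18B, while IVM (red) and IVO (blue) points mostly mix.

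Among spindle kinesins the largest rise in MII oocytes was that of KIF2A (chromosome 6, bases 61906014 to 61991000 on the unnamed build of the deposited table), a kinesin-13 that shortens microtubules from their ends. It had 39.6, 30.7 and 28.3 CPM in IVM MII, 46.1 and 22.7 in IVO MII, and 4.32 and 3.95 in GV. Every MII library lay above both GV libraries. The log2 fold change was 2.99 (SE 0.47, adjusted p = 0.0025 by edgeR) for IVM MII against GV and 3.05 (SE 0.49, adjusted p = 0.0036 by edgeR) for IVO MII against GV. KIF2A shares 216 exon bases with DIMT1 on the opposite strand, and the strand setting of the counting is not given in the sources used here. DIMT1 was at 26.4, 15.3 and 32.8 CPM in IVM MII, 22 and 19.5 in IVO MII, and 27.5 and 27.4 in GV, with no MII library above 32.8 CPM.

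KIF20B and KIF11 lie near each other on chromosome 9 (bases 88241061 to 88311146 and 91077419 to 91146714). KIF20B had 1011, 856 and 903 CPM in IVM MII, 1094 and 880 in IVO MII, and 161 and 199 in GV. The lowest MII value was thus above the highest GV value, with log2 fold changes of 2.36 (SE 0.31, adjusted p = 0.00158 by edgeR) for IVM MII and 2.45 (SE 0.32, adjusted p = 0.00226 by edgeR) for IVO MII against GV. KIF11, the tetrameric motor that pushes spindle poles apart, had 268, 263 and 198 CPM in IVM MII, 202 and 197 in IVO MII, and 58.1 and 62.0 in GV. Its log2 fold changes against GV were 2.02 (SE 0.31, adjusted p = 0.00227 by edgeR) for IVM MII and 1.73 (SE 0.32, adjusted p = 0.0058 by edgeR) for IVO MII. The values of IVM replicate 3 and both IVO libraries were close together, and IVM replicates 1 and 2 were higher.

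KIF18A, which shortens kinetochore microtubules and damps chromosome movement, had 160, 113 and 134 CPM in IVM MII, 103 and 79.4 in IVO MII, and 38.9 and 43.5 in GV. It rose by 1.72 (SE 0.33, adjusted p = 0.00489 by edgeR) in IVM MII and by 1.14 (SE 0.34, adjusted p = 0.037 by edgeR) in IVO MII against GV on the log2 scale. The IVO MII call held in 10 of 17 alternatives and was lost with DESeq2 size factors (adjusted p = 0.0572), without a filter (0.0594), and without either GV library, IVO MII replicate 1, or IVM MII replicate 1 or 2. KIF4A, which compacts chromosomes and acts at the spindle midzone, had 112, 109 and 62.9 CPM in IVM MII, 80.4 and 40.4 in IVO MII, and 25.6 and 27.3 in GV. It rose in IVM MII (log2 fold change 1.83, SE 0.44, adjusted p = 0.0127 by edgeR), and in IVO MII it did not pass the test (1.19, SE 0.45, adjusted p = 0.0803 by edgeR). KIF23, the motor subunit of centralspindlin, which organises the midzone for cytokinesis, had 403, 386 and 302 CPM in IVM MII, 434 and 476 in IVO MII, and 195 and 184 in GV. It rose by 0.94 (SE 0.29, adjusted p = 0.0323 by edgeR) in IVM MII and by 1.27 (SE 0.31, adjusted p = 0.0174 by edgeR) in IVO MII. The IVM MII call of KIF23 held in 11 of 17 alternatives and was lost with DESeq2 size factors (adjusted p = 0.0635) and without a filter (0.0573), among others. KIF15, which can back up KIF11, was called higher in both kinds of MII oocyte, at 256 ± 50.9 CPM in IVM MII (n = 3), 259 ± 2.61 in IVO MII (n = 2) and 115 ± 4.33 in GV (n = 2). KIF14, a cytokinesis motor, was called higher in IVM MII, at 97.2 ± 3.48 CPM against 44.8 ± 0.00641 in GV, and was not called in IVO MII at 66.1 ± 3.59.

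KIF22 and KIF18B were the spindle kinesins that fell. KIF22 (chromosome 20, bases 28246317 to 28262543) had 3.27, 1.86 and 5.26 CPM in IVM MII, 7.59 and 15.5 in IVO MII, and 70.9 and 59.9 in GV. The 3 groups did not overlap, with IVM MII lowest. Against GV the log2 fold change was -4.24 (SE 0.54, adjusted p = 0.00156 by edgeR) in IVM MII and -2.50 (SE 0.59, adjusted p = 0.0153 by edgeR) in IVO MII. KIF18B, which works with KIF2C on astral microtubules, had 0.644, 1.22 and 0.263 CPM in IVM MII, 1.53 and 3.16 in IVO MII, and 6.11 and 5.06 in GV. It fell by 2.97 on the log2 scale (SE 0.82, adjusted p = 0.0221 by edgeR) in IVM MII, and its level was low also in GV. The call held in 12 of 17 alternatives and was lost, among others, with the replicate block (adjusted p = 0.0567) and the crossed block (0.0753). The IVO MII libraries also lay below GV, and the gene was not called there.

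KIF2C, KIF20A and KIFC1 showed no difference between stages that passed the test. KIF2C, the main kinesin-13 of centromeres, had 93.8, 83.7 and 129.9 CPM in IVM MII, 81.7 and 127 in IVO MII, and 123 and 93.1 in GV, and the groups overlapped (log2 fold change -0.08, SE 0.35, for IVM MII and -0.05, SE 0.38, for IVO MII against GV). KIF20A, which brings the chromosomal passenger complex to the midzone, had 64.1, 47.4 and 70.2 CPM in IVM MII, 74.2 and 42.6 in IVO MII, and 63.1 and 48.9 in GV. Its log2 fold changes of 0.11 (SE 0.37) and 0.06 (SE 0.40) turned negative with DESeq2 size factors, and the SEs leave room for changes of either sign. KIFC1, a minus-end motor that focuses spindle poles, was low, at 1.39, 4.94 and 4.89 CPM in IVM MII, 1.12 and 2.24 in IVO MII, and 2.93 and 1.52 in GV. Its values overlapped in all 3 groups (log2 fold change 0.75, SE 0.81, for IVM MII and -0.40, SE 0.88, for IVO MII against GV).

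In counts, 8 of the 14 tested spindle and cytokinesis kinesins were called higher and 2 lower in IVM MII against GV, with a median log2 fold change of 1.03. In IVO MII against GV 6 were called higher and 1 lower, with a median of 0.91. Over all 16374 tested genes 36.3% were called in IVM MII against GV (18.5% higher and 17.8% lower, median -0.10) and 28.1% in IVO MII against GV (14.6% higher and 13.5% lower, median -0.16). Over all 32 tested kinesins 9 were called higher and 2 lower in IVM MII, and 9 higher and 1 lower in IVO MII. The shares of kinesins called, 34.4% and 31.2%, were therefore near those of all genes, while most of the called members were higher. All IVM libraries lay above GV for 13 kinesins and below for 6, against 31.5% and 37.5% of all tested genes. All IVO libraries lay above GV for 16 and below for 6, against 32% and 40.8%. The comparisons share the GV libraries and are not independent of each other. They rest on the GV pair: without GV replicate 1 or without replicate 2, 5 members stayed called in IVM MII (KIF2A, KIF20B, KIF5B, KIF11 and KIF22) and 3 in IVO MII (KIF2A, KIF20B and KIF5B). Without IVM MII replicate 1, 7 members were called in IVM MII.

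**Figure D3:**
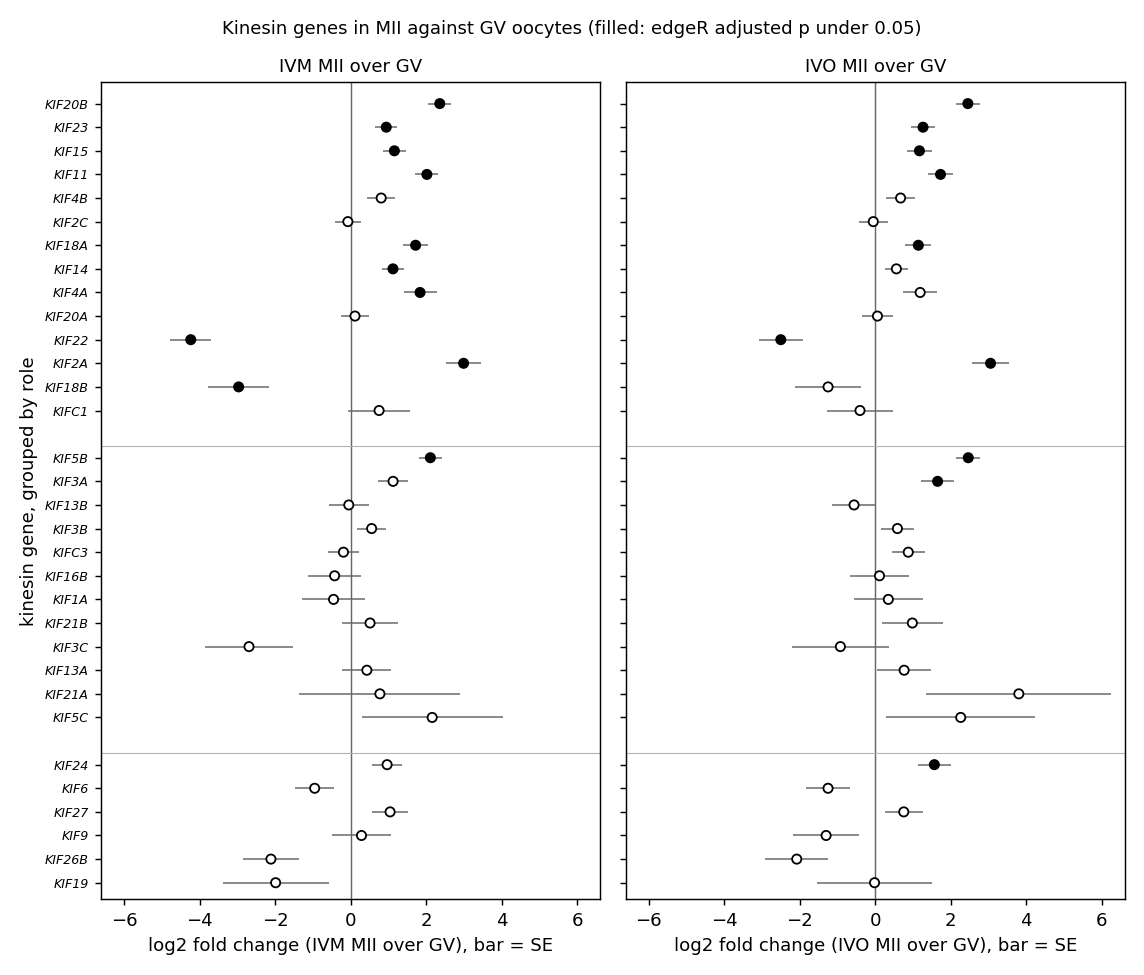
Log2 fold change of each tested kinesin gene in IVM MII (left) and IVO MII (right) over GV, with its SE as a bar, genes grouped by role and filled points at an edgeR adjusted p under 0.05. Filled points sit mostly to the right in the upper, spindle block, apart from KIF22 and KIF18B, and few appear in the transport and cilium blocks.

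Of the 12 tested transport kinesins 1 was called higher in IVM MII and 2 in IVO MII against GV, and 0 were called lower by edgeR, where 3 and 2 of the 12 had an unadjusted p under 0.05 in either direction (47.5% and 42.1% of all tested genes). KIF5B (chromosome 9, bases 32597570 to 32645542), whose product moves mitochondria and other cargo, had 602, 555 and 604 CPM in IVM MII, 794 and 709 in IVO MII, and 120 and 153 in GV. All MII libraries lay above GV, and the log2 fold changes were 2.11 (SE 0.30, adjusted p = 0.00185 by edgeR) in IVM MII and 2.46 (SE 0.31, adjusted p = 0.00211 by edgeR) in IVO MII. KIF3A, a motor subunit of heterotrimeric kinesin-2, had 180, 176 and 363 CPM in IVM MII, 306 and 387 in IVO MII, and 103 and 117 in GV. It rose in IVO MII (log2 fold change 1.65, SE 0.43, adjusted p = 0.0222 by edgeR), and missed the threshold in IVM MII (1.12, SE 0.40, adjusted p = 0.0541 by edgeR), where replicate 3 was as high as the IVO libraries and replicates 1 and 2 were lower. It was called there by DESeq2 (adjusted p = 0.0434), limma voom (0.044) and the other edgeR fit (0.039).

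The other transport genes were less abundant. KIF3B, the usual partner of KIF3A, had 37.1 ± 10.9 CPM in IVM MII, 38.0 ± 10.5 in IVO MII and 25.3 ± 2.94 in GV. KIF3C, another kinesin-2 subunit, had 0.107, 3.29 and 1.32 CPM in IVM MII, 0.968 and 9.83 in IVO MII, and 11.8 and 8.69 in GV, so its IVM libraries lay below GV and its IVO libraries were spread over both. KIF13B, a carrier of membrane cargo, had 44.7, 46.9 and 128 CPM in IVM MII, 34.7 and 68.1 in IVO MII, and 73.8 and 77.7 in GV, without a call. KIF21A stood out by 1 library, with 5.40 CPM in IVO MII replicate 1 and at most 0.697 CPM in each of the other 6.

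Of the 6 tested kinesins of cilia, centrioles and other roles edgeR called 0 in IVM MII and 1, or 16.7%, in IVO MII against GV, where it called 36.3% and 28.1% of all tested genes. At an unadjusted p under 0.05 there were 2 of the 6 in each comparison. KIF24, which controls centriole ends, had 39.6, 22.7 and 31.6 CPM in IVM MII, 38.1 and 57.0 in IVO MII, and 15.8 and 16.3 in GV, and it rose in IVO MII (log2 fold change 1.57, SE 0.43, adjusted p = 0.0267 by edgeR). It shares 146 exon bases with UBAP1 on the opposite strand, which had 4.02 to 8.83 CPM in IVM MII, 4.74 and 10.4 in IVO MII, and 19.3 and 12.8 in GV. KIF26B, an atypical kinesin that lacks motor activity, had 1.40, 1.90 and 2.48 CPM in IVM MII, 0.662 and 3.28 in IVO MII, and 8.92 and 7.81 in GV. All MII libraries lay below GV. The gene was not called by edgeR in the full data (adjusted p = 0.051 in IVM MII and 0.0941 in IVO MII), but it was called lower in 9 of 17 alternative settings in IVM MII and in 4 of 17 in IVO MII.

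For 7 pairs of close relatives, chosen after their values were seen, the ratio of CPM per kilobase was taken in each library. KIF2A stood to KIF2C at 0.192, 0.167 and 0.0991 in IVM MII, 0.257 and 0.0816 in IVO MII, and 0.016 and 0.0193 in GV. KIF20B stood to KIF20A at 8.23, 9.44 and 6.71 in IVM MII, 7.70 and 10.8 in IVO MII, and 1.33 and 2.12 in GV. KIF18A stood to KIF18B at 284, 106 and 581 in IVM MII, 76.9 and 28.7 in IVO MII, and 7.29 and 9.85 in GV. In these 3 pairs each MII library lay above both GV libraries, and for KIF18A over KIF18B each IVM library also lay above both IVO libraries. KIF18B had only 12, 29 and 7 counts in IVM MII and 30 and 82 in IVO MII, so ratios to it are imprecise. KIF3C stood to KIF3B at 0.00468 to 0.107 in IVM MII, 0.0369 and 0.252 in IVO MII, and 0.371 and 0.595 in GV, below GV in each MII library. The lowest of these ratios rests on 2 counts of KIF3C in IVM MII replicate 1. KIF3A stood to KIF3B at 9.90 to 15.2 in IVM MII, 17.2 and 20.3 in IVO MII, and 8.69 and 9.01 in GV, so that IVM MII lay between the other groups. KIF13A stood to KIF13B at 0.0623 to 0.147 in IVM MII, 0.14 and 0.158 in IVO MII, and 0.0549 and 0.0617 in GV, with the lowest IVM value just above GV. With these group sizes the smallest two-sided exact permutation p is 0.2 for IVM MII against GV or IVO MII and 0.333 for IVO MII against GV. An exact permutation test of a single ratio, or of the family share given above, could therefore not pass 0.05. No other test of them was run.

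KIF4A and KIF4B need a reservation. KIF4B has 1 exon in the deposited table, as has KIF2B, against 8 to 50 merged exons in the other members, and is known as an intronless copy of KIF4A. The aligner named in the submitters' processing notes does not split reads over introns, so junction reads of KIF4A may be counted on KIF4B, and the 2 rows are uncertain. KIF4A also shares 189 exon bases with PDZD11 on the opposite strand. PDZD11 was at 20.0, 26.8 and 11.6 CPM in IVM MII, 18.0 and 14.6 in IVO MII, and 33.3 and 49.5 in GV. KIF4B had 104, 112 and 167 CPM in IVM MII, 92.2 and 140.5 in IVO MII, and 84.7 and 61.2 in GV, without a call. The ratio of KIF4A to KIF4B overlapped between all groups, at 0.408 to 1.16 in IVM MII, 0.311 and 0.945 in IVO MII, and 0.327 and 0.484 in GV.

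**Figure D4:**
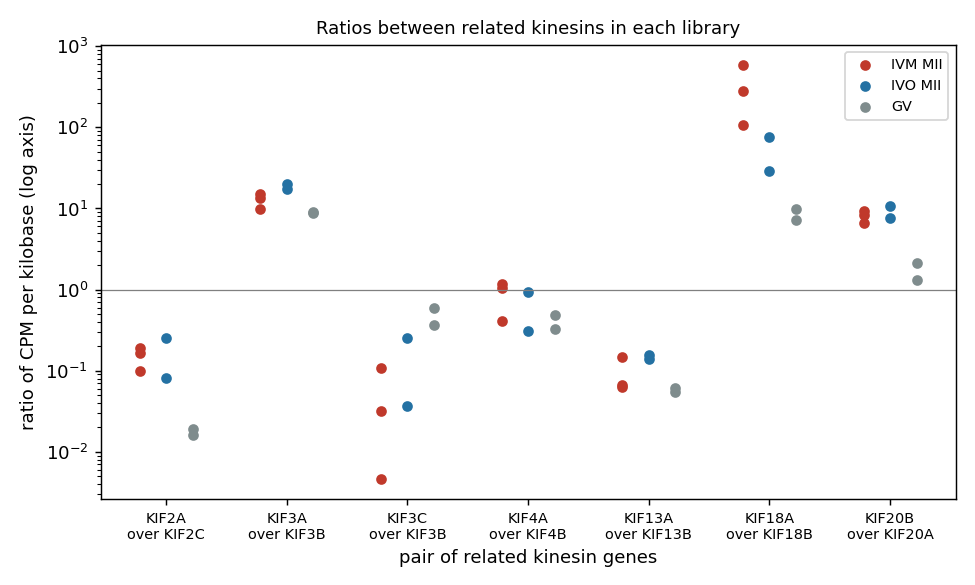
Ratio of CPM per kilobase between related kinesin genes in each library, on a log axis, with IVM MII in red, IVO MII in blue and GV in grey. The ratios of KIF2A to KIF2C, KIF18A to KIF18B and KIF20B to KIF20A are higher in every MII library than in GV, KIF3C to KIF3B is lower, and KIF4A to KIF4B overlaps.

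Oocytes matured in vitro and in vivo had 0 of 32 kinesins called by edgeR, where 1.47% of all tested genes were called (0.892% higher and 0.58% lower). At an unadjusted p under 0.05 there were 2 kinesins, KIF22 and KIFC3, against 21.1% of all genes. DESeq2 called these same 2 kinesins, among 2010 called over all genes. The median log2 fold change was -0.08 over the kinesins and 0.00 over all genes. KIF22, with the values given above, was at 3.47 ± 1.71 CPM in IVM MII (n = 3) and 11.6 ± 5.62 in IVO MII (n = 2), a log2 fold change of -1.74 (SE 0.51, adjusted p = 0.11 by edgeR, 0.0141 to 0.333 over the alternatives). Without IVM MII replicate 3 it was called lower in IVM MII at -2.20 (adjusted p = 0.0442 by edgeR), and with the replicate number as a block at -2.18 (adjusted p = 0.0484 by edgeR). The block also sets IVM MII replicate 3 aside, so these settings are not separate. KIFC3, a minus-end motor of cell junctions and vesicles, had 8.90, 8.41 and 10.2 CPM in IVM MII, 17.6 and 20.9 in IVO MII, and 11.8 and 9.17 in GV. The IVM libraries lay below the IVO libraries and overlapped with GV, with a log2 fold change of -1.07 for IVM against IVO MII (SE 0.39, adjusted p = 0.174 by edgeR, 0.0386 to 0.343 over the alternatives).

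The next smallest p-values belonged to KIF18B, KIF14, KIF9 and KIF18A. KIF18B was lower in each IVM than in each IVO library (-1.72, SE 0.80, adjusted p = 0.257 by edgeR). KIF14 had 99.2, 93.2 and 99.2 CPM in IVM MII and 63.6 and 68.7 in IVO MII (0.56, SE 0.29, adjusted p = 0.302 by edgeR). KIF9, of sperm tails and motile cilia in the mouse, had 19.2, 10.2 and 9.21 CPM in IVM MII and 7.69 and 0.925 in IVO MII (1.58, SE 0.82, adjusted p = 0.303 by edgeR), and the value was 3.79 without IVO MII replicate 1 and 0.65 without IVO MII replicate 2. KIF18A was higher in each IVM library (0.57, SE 0.31, adjusted p = 0.326 by edgeR). Of the 32 genes, 3 had all IVM libraries above and 5 had all below the IVO libraries, against 17.8% and 16% of all tested genes.

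For the kinesins reported whatever their values, no difference between IVM and IVO MII was called by edgeR. The log2 fold changes were 0.29 for KIF11 (SE 0.28), 0.05 for KIF20A (SE 0.37), -0.33 for KIF23 (SE 0.28), -0.03 for KIF2C (SE 0.35), 0.64 for KIF4A (SE 0.42) and -0.36 for KIF5B (SE 0.27). That of KIF20A turned negative with upper quartile scaling, and that of KIF4A was 1.22 without IVO MII replicate 1 and 0.14 without IVO MII replicate 2. KIFC1 was at 1.153 (SE 0.83) and KIF3A at -0.53 (SE 0.38). With these errors a missed threshold does not show that the levels were alike. For the transport genes 11 of 12 log2 fold changes were negative, with a median of -0.50, and the IVM libraries were unequal: in addition to KIF3A and KIF13B, KIF1A had 2.36, 3.13 and 12.03 CPM in IVM MII and 4.48 and 15.9 in IVO MII. KIF16B had 2.41, 6.38 and 12.9 CPM in IVM MII and 6.37 and 14.7 in IVO MII. Of the 3 IVM libraries replicate 3 was highest for 16 of the 32 tested genes, replicate 1 for 12 and replicate 2 for 4.

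**Figure D5:**
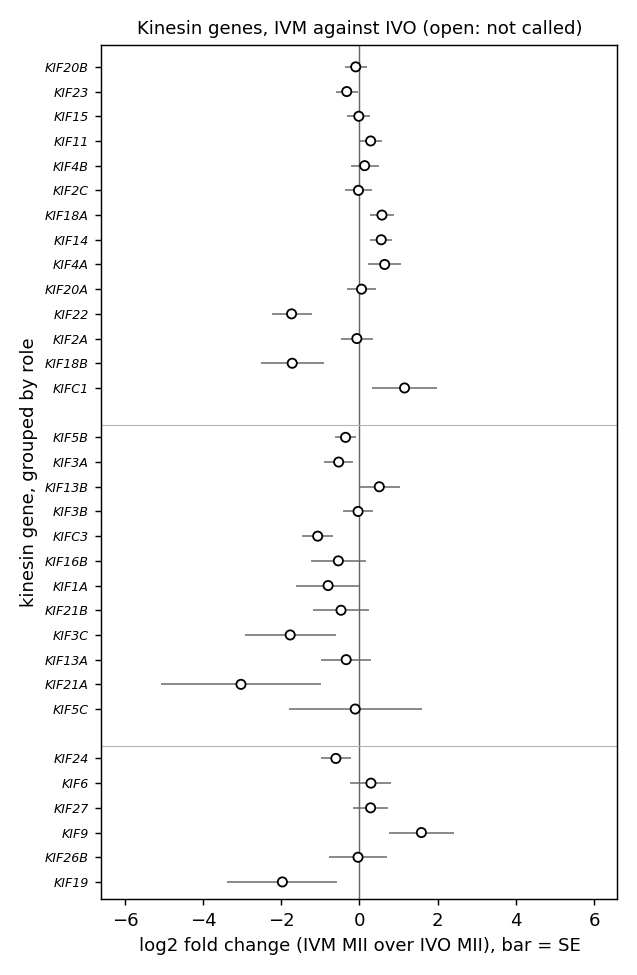
Log2 fold change of each tested kinesin gene in IVM MII over IVO MII, with its SE as a bar, genes grouped by role. All 32 points are open, none being called by edgeR, with KIF22 at -1.74 and KIFC3 at -1.07 lying farthest from 0 relative to their bars.

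Motors and partners named otherwise were read from lists of known members. Of 20 tested kinesin relatives and partners 7 rose and 3 fell in IVM MII against GV, and 6 rose and 0 fell in IVO MII by edgeR. These were 50% and 30% of the list, where 36.3% and 28.1% of all tested genes were called, so the IVO share was near that of all genes. At an unadjusted p under 0.05 there were 12 of 20 in IVM MII and 8 of 20 in IVO MII, against 47.5% and 42.1% of all tested genes. TRAK1, an adaptor that ties mitochondria to KIF5, had 74.2, 51.4 and 78.7 CPM in IVM MII, 96.1 and 100.3 in IVO MII, and 8.49 and 9.51 in GV. It rose by 2.92 (SE 0.37, adjusted p = 0.00155 by edgeR) in IVM MII and by 3.45 (SE 0.39, adjusted p = 0.0021 by edgeR) in IVO MII. CENPE, a kinetochore kinesin, had log2 fold changes of 2.38 (SE 0.30, adjusted p = 0.00155 by edgeR) and 2.43 (SE 0.31, adjusted p = 0.00211 by edgeR) in the same comparisons. ECT2, a cytokinesis factor that binds centralspindlin, rose by 2.96 (SE 0.36, adjusted p = 0.0015 by edgeR) and 2.06 (SE 0.37, adjusted p = 0.00505 by edgeR). RACGAP1 and KIF1BP were chosen after their values were seen. RACGAP1, the partner of KIF23 in centralspindlin, had 179, 122 and 586 CPM in IVM MII, 311 and 515 in IVO MII, and 236 and 322 in GV, with overlap between all groups. KIF1BP, whose product binds and holds back several kinesins, had 299, 340 and 145 CPM in IVM MII, 53.3 and 88.2 in IVO MII, and 46.4 and 60.4 in GV. Each IVM library lay above the IVO libraries, with a difference that depended on the setting for its call (log2 fold change 1.88, SE 0.45, adjusted p = 0.0725 by edgeR, 0.00213 to 0.186 over the alternatives). KIF1BP was called higher in IVM MII by DESeq2 (adjusted p = 0.00213), without a filter (0.0329), with the other edgeR fit (0.0423), with the replicate block (0.0124), with the crossed block (0.0166) and without IVM MII replicate 3 (0.0215). Both blocks give IVM MII replicate 3 a term of its own and so set it aside. The blocks and the fit without that library are therefore not separate settings.

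The genes of cytoplasmic dynein and dynactin, the main motor toward microtubule minus ends, were called in both directions. Of 26 tested, 6 rose and 9 fell in IVM MII, and 1 rose and 8 fell in IVO MII, against GV, with medians of -1.12 and -1.52. These were 57.7% and 34.6% of the list, where 36.3% and 28.1% of all tested genes were called. DYNLRB1, a dynein light chain gene, had 11.6, 17.1 and 5.83 CPM in IVM MII, 7.18 and 7.36 in IVO MII, and 105 and 136 in GV (log2 fold change -3.38, SE 0.47, adjusted p = 0.00179 by edgeR in IVM MII and -4.05, SE 0.56, adjusted p = 0.00262 by edgeR in IVO MII). DYNLT3, a light chain gene, had 36.0, 15.7 and 35.7 CPM in IVM MII, 7.49 and 5.32 in IVO MII, and 2.51 and 1.52 in GV, and it rose in IVM MII (3.85, SE 0.60, adjusted p = 0.00244 by edgeR). DYNC1LI1, a light intermediate chain gene, was called lower in both kinds of MII oocyte, at 19.1 to 29.8 CPM in IVM MII, 10.04 and 9.87 in IVO MII, and 56.9 and 58.8 in GV. DCTN2, a dynactin subunit gene called lower in both, was at 2.79 to 4.22 CPM in IVM MII, 1.22 and 4.09 in IVO MII, and 39.6 and 34.0 in GV. Between IVM and IVO MII the dynactin subunit gene DCTN6 was the 1 called member, with 1363, 931 and 809 CPM in IVM MII, 215 and 81.2 in IVO MII, and 296 and 369 in GV (log2 fold change of IVM over IVO MII 2.80, SE 0.49, adjusted p = 0.0385 by edgeR). Without GV replicate 1 the value was 2.80 (adjusted p = 0.0535 by edgeR), without GV replicate 2 it was 2.80 (0.0569), without IVO MII replicate 2 it was 2.18 (0.108), without IVM MII replicate 1 it was 2.56 (0.111) and without IVM MII replicate 2 it was 2.87 (0.125). In a fit of the IVM and IVO libraries alone it was 2.80 (adjusted p = 0.0762 by edgeR). Of 12 tested tubulins, many with near-identical copies and so uncertain, 1 rose and 5 fell in IVM MII, and 1 rose and 1 fell in IVO MII, against GV (50% and 16.7% of the list, against 36.3% and 28.1% of all tested genes).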

How the data were processed

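The authors deposited raw counts per gene for 7 libraries, with no normalization. Per the labels' protocols, cDNA was primed on poly(A), switched at the 5′ end, amplified by PCR, tagmented and sequenced with paired ends, so a change in tail length can change a count. Per the submitters' processing notes, featureCounts 2.0.1, Bowtie2 2.4.5, SAMtools 1.15.1, DESeq2 and Trim Galore 0.6.7 were used. Genome build, strandedness and treatment of multi-mapped reads: not given in the sources used here. Broken lines (10) were left out. KIF1B and KIF25 were not analysed here; KIF26A, named only through a RefSeq gene table, was not counted as a member.

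All genes were fitted in 1 model with edgeR 4.0.16 (R 4.3.3; glmQLFit and glmQLFTest with default settings, TMM, filterByExpr), with 3 groups and no covariates. Two-sided tests were used, with a call at a Benjamini-Hochberg adjusted p under 0.05 over all tested genes. The procedure was also run on simulated counts with known changes in IVM MII. No other difference between the groups was simulated, and only IVM against IVO MII was tested there. That run therefore does not bear on the comparisons with GV. Alternatives were other scalings and filters, DESeq2 1.42.0, limma 3.58.1 (voom), a fit of only the groups compared, a replicate block, the other edgeR fit and leaving out each library. Members and lists were chosen with earlier results of these data known. Full test values are given for up to 6 called members per direction at 5 CPM or more in the higher group, for all called members and the 6 smallest p-values between IVM and IVO MII, for 9 fixed members, and for up to 3 called partner genes per list and comparison with the smallest adjusted p. Intervals and floors cover counting error only.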

Additional observations from a re-analysis of the deposited data

How the results depend on the processing

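Between IVM and IVO MII the number of called kinesins was 0 and stayed 0 under the other scalings, filters, limma voom, the newer edgeR fit and the fit of only the groups compared. It was 2 with DESeq2, 1 with the replicate block, 1 without IVM MII replicate 3 and 0 without IVM MII replicate 1 or 2. By the sample titles only IVM MII has a replicate 3. The replicate block and the crossed block give that library a term of its own, so they are not separate from the fit without it. Over all genes the full edgeR fit called 241, DESeq2 2010 and the replicate block 1238. The fit without IVM MII replicate 3 called 1277 of all genes. Those without IVM MII replicate 1 or 2 called 0 of all genes, so no kinesin could be called there. Leaving out 1 library gave 5 to 12 calls in IVM MII against GV (11 in the full data) and 3 to 11 in IVO MII against GV (10). In these comparisons the replicate block gave 11 and 10 calls. The replicate numbers pair nothing in the labels. The numbers used are those of the sample titles, whereas the deposited column of IVO MII replicate 2 bears the number 3. By the titles, the deviations of same-numbered libraries from their group means correlated at -0.149 to 0.21, and those of differently numbered libraries at -0.271 to 0.271. The value of 0.271 belongs to IVO MII replicate 2 and IVM MII replicate 3. A block by the column numbers was not fitted. In a group of 2 libraries the deviations mirror each other, so these values cannot decide whether the numbers pair libraries. With the numbers of the IVO MII libraries crossed, an alternative chosen after seeing the data, the calls were 1, 10 and 10 for IVM against IVO MII, IVO MII against GV and IVM MII against GV.

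KIF20A turned negative between IVM and IVO MII with DESeq2 size factors (-0.0029), upper quartile scaling (-0.0657), the filter of 1 CPM in 2 libraries (-0.0133), DESeq2 (-0.0027), the replicate block (-0.0348) and the crossed block (-0.0688), and without 1 library it ranged from -0.3769 to 0.506. In IVO MII against GV it was -0.0231 with DESeq2 size factors and -0.0233 with DESeq2 (-0.4054 to 0.3954 without 1 library). In IVM MII against GV it was -0.026 with DESeq2 size factors, -0.026 with DESeq2, -0.0139 with the block and -0.0079 with the crossed block (-0.0749 to 0.2905 without 1 library). KIF2C changed sign when a library was left out, over -0.3089 to 0.2438 between IVM and IVO MII, -0.4134 to 0.2211 in IVO MII and -0.3198 to 0.1213 in IVM MII against GV. KIFC1 ranged from -0.9986 to 0.1297 in IVO MII against GV. The cause was not tested. Over all tested genes the median was -0.24 with DESeq2 size factors and -0.10 with TMM in IVM MII against GV, and -0.11 with upper quartile scaling and 0.00 with TMM between IVM and IVO MII. Low counts limit genes such as KIF5C, which was at 0 counts in 1 library.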
